A study of Homo sapiens with 6 samples.

Results

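The 42 genes described here encode nucleolar factors that make ribosomes. They were taken by name from a deposited table of 56303 genes, and all 42 were found and passed the filter on low counts. Expression was measured by RNA sequencing in A549, an established human lung adenocarcinoma cell line. A group of 3 libraries came from A549 cells transfected with siRNA against HNRNPD, and a group of 3 came from A549 cells transfected with a negative-control (NC) siRNA. HNRNPD encodes AUF1, a protein that binds AU-rich stretches of mRNA. The labels name no separate cultures and no siRNA sequence, and the time between transfection and harvest is not stated in them. Every p-value below therefore measures variation among 6 libraries, some or all of which may be technical.

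Ribosomes are assembled in the nucleolus. RNA polymerase I copies the ribosomal DNA into a long precursor RNA, small nucleolar ribonucleoproteins (snoRNPs) guide its chemical modification, and many assembly factors, helicases and GTPases cut, fold and package it into the small and large subunits. Cancer cells typically run this pathway at a high rate, and the transcription factor MYC is known to bind many of its genes at a DNA motif called the E-box.

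The libraries held 37151094 to 40462117 counts with HNRNPD siRNA and 42607632 to 43005090 with NC siRNA. HNRNPD itself was at 177, 162.7 and 167.5 CPM (counts scaled to library size) with HNRNPD siRNA and 965.4, 942.8 and 942.2 CPM with NC siRNA (log2 fold change -2.49, SE 0.06, edgeR adjusted p = 1.38e-15), which matches the labels in all 6 libraries. The summed level of 8 epithelial and A549 markers was 3241.1 to 3474.8 CPM with HNRNPD siRNA and 5513.2 to 5835.1 CPM with NC siRNA. Most of it was KRT8, at 2054.9 CPM with HNRNPD siRNA and 3327.2 CPM with NC siRNA, and 5 of the 8 were called lower, EPCAM and NAPSA higher (log2 fold changes 0.33 and 0.75), and CDH1 was not called. Of 6 leukocyte markers, only CD68 and CD14 passed the filter, and PTPRC, CD3E and LYZ were at or near 0. CD68 was called higher and CD14 lower (log2 fold changes 2.48 and -1.98). The list summed to 73.6 to 152.9 CPM with HNRNPD siRNA and 19.4 to 22.4 CPM with NC siRNA, nearly all of it CD68, whose exons overlap other genes over a fraction of 0.858 of their bases. The list of 6 fibroblast and endothelial markers summed to 6.54 to 7.92 CPM with HNRNPD siRNA and 5.03 to 6.01 CPM with NC siRNA. Most of it was COL1A1, which was called higher (log2 fold change 0.37). The part of these markers in the results below was not tested.

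The nucleolar genes did not move as a block. After HNRNPD siRNA 13 of the 42 rose, 11 fell and 18 were not called, at an edgeR adjusted p under 0.05 over all genes. The rises were led by NOLC1, a snoRNP chaperone, at 2.74-fold, and by the small-subunit GTPase BMS1 at 1.92-fold. The falls were shallower and included the abundant proteins NCL and NPM1 and the methyltransferase FBL, the deepest fall at 1.47-fold. The median log2 fold change of the 42 genes was -0.02, with quartiles of -0.18 and 0.24, against a median of 0.01 and quartiles of -0.37 and 0.46 for all 20465 tested genes. For the 10368 tested genes between the lowest and the highest of the 42 in mean level, the median was -0.05 and the quartiles -0.36 and 0.28.

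The count of calls has to be read against the background, which was high. Of the nucleolar genes 57.1% were called, 31% higher and 26.2% lower, beside 56.1% of all tested genes, 28.4% higher and 27.8% lower. Of the 10368 tested genes whose mean level lay between those of the lowest and the highest nucleolar gene (6.59 and 7076.9 CPM), 68.2% were called, 30.6% higher and 37.6% lower. Only 1 of the 42, NOLC1, was called higher by at least 2-fold, against 10.2% of all tested genes and 5.12% of those in the same level range. The deepest fall, that of FBL, did not reach 2-fold. The CPM values of the groups did not overlap for 14 genes with HNRNPD siRNA above and 14 with it below, where 31.7% and 30.9% of all tested genes (62.6% together) had no overlap. In the level range of the 42 genes these shares were 32.9% above and 40.4% below (73.3% together). The CV over the 3 libraries of a group had a median over the 42 genes of 4.66% with HNRNPD siRNA and 3.41% with NC siRNA, and folds as small as 1.12 were called.

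**Figure D1:**
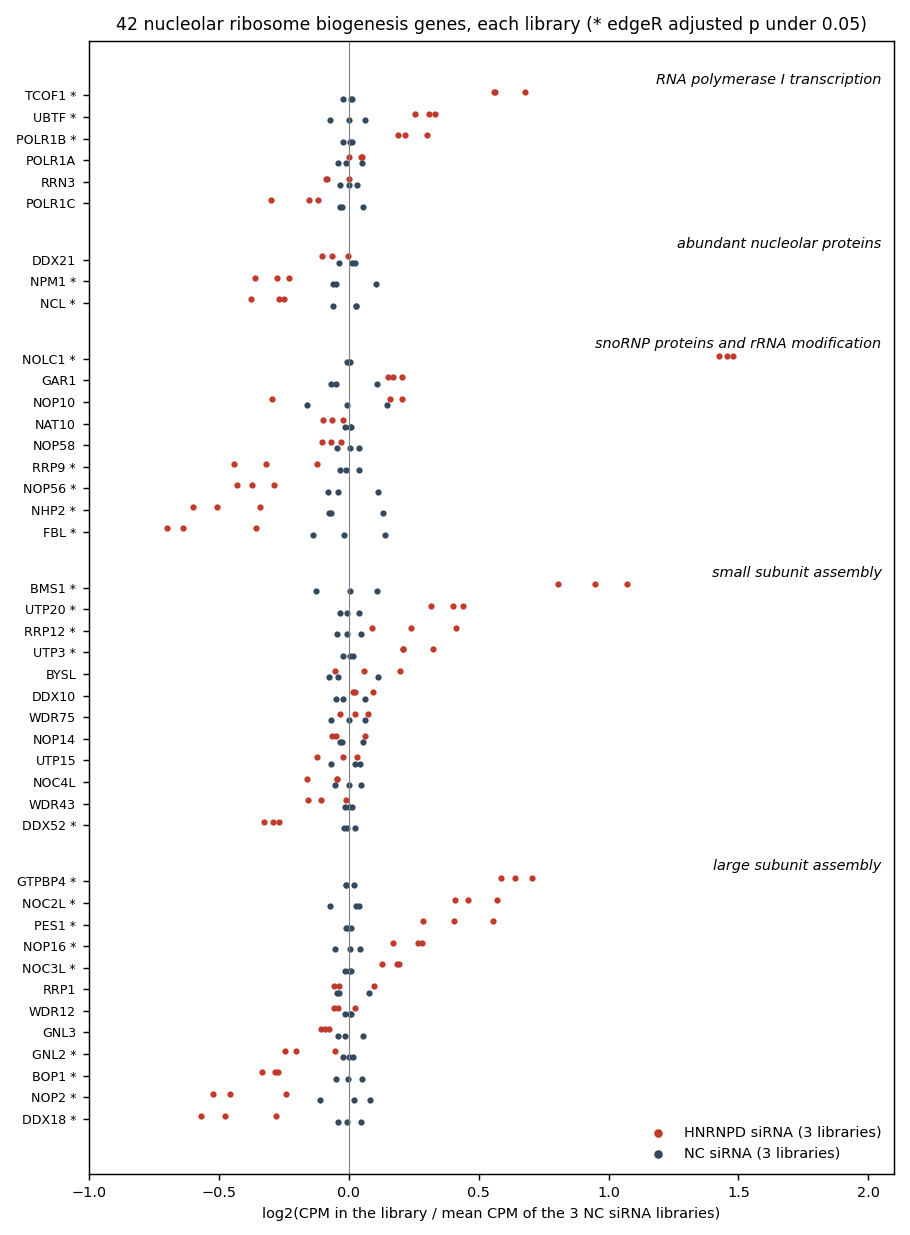
Level of each of the 42 genes in each library, as log2 of its CPM over the mean CPM of the 3 NC siRNA libraries, grouped by role. Red points are the HNRNPD siRNA libraries and dark points the NC siRNA libraries; NOLC1 and BMS1 lie far to the right, and FBL, NHP2, DDX18 and NOP2 are farthest to the left.

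**Figure D2:**
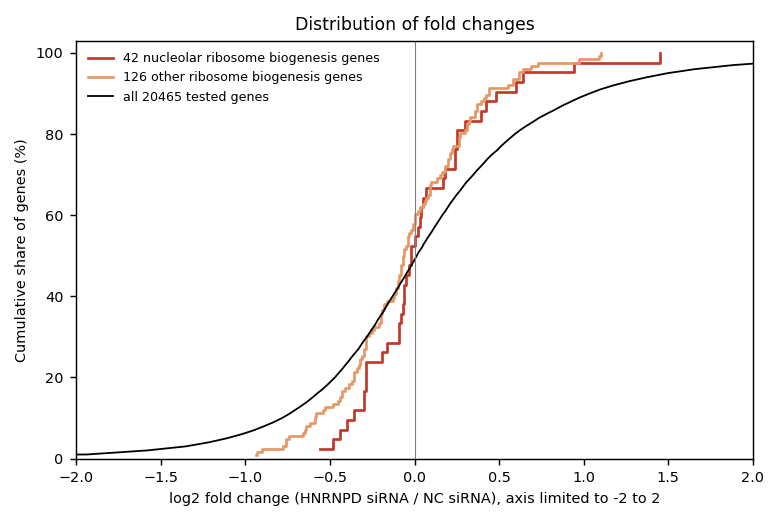
Cumulative share of genes (%) against the log2 fold change, HNRNPD siRNA over NC siRNA, for the 42 nucleolar genes (red), other ribosome biogenesis genes (orange) and all tested genes (black). The curve of the 42 nucleolar genes rises more steeply around 0 than that of all 20465 tested genes, with quartiles of -0.18 and 0.24 against -0.37 and 0.46. Tested genes in the level range of the 42, which are not drawn, had quartiles of -0.36 and 0.28.

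RNA polymerase I and its factors act first in the pathway, and 3 of these 6 genes rose (50%) while 0 fell by edgeR. Of tested genes in the level range of the nucleolar genes, 30.6% were called higher and 37.6% lower. TCOF1 encodes treacle, a nucleolar scaffold that ties the polymerase to its factor UBTF and is mutated in Treacher Collins syndrome. It was at 251.3, 252.4 and 273.3 CPM in HNRNPD siRNA replicates 1 to 3, against 171.6, 172 and 168.2 CPM in NC siRNA replicates 1 to 3. Its log2 fold change was 0.60 (SE 0.06, edgeR adjusted p = 5.94e-08), and the lowest HNRNPD siRNA library was well above the highest NC siRNA library. UBTF, which coats active ribosomal DNA, had 373.1, 387.2 and 393.9 CPM with HNRNPD siRNA and 326.8, 313.2 and 297.4 CPM with NC siRNA (log2 fold change 0.30, SE 0.06, edgeR adjusted p = 0.000248). POLR1B, the second-largest subunit of the polymerase, had 24.3, 22.5 and 22.9 CPM with HNRNPD siRNA and 19.8, 19.9 and 19.4 CPM with NC siRNA (log2 fold change 0.24, SE 0.07, edgeR adjusted p = 0.0092). The call of POLR1B was lost without NC siRNA replicate 3 (edgeR adjusted p = 0.0508).

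The largest subunit was not called. POLR1A, which carries part of the active site, had 173.9, 174.4 and 168.2 CPM with HNRNPD siRNA and 163.4, 167.1 and 174.2 CPM with NC siRNA, and the groups overlapped (log2 fold change 0.03, 95% interval -0.08 to 0.14). RRN3, the factor that brings the polymerase to the promoter, was not called (log2 fold change -0.06, 95% interval -0.17 to 0.06). POLR1C, a subunit shared with RNA polymerase III, averaged 17.1 ± 1.11 CPM with HNRNPD siRNA and 19.5 ± 0.669 CPM with NC siRNA (SD, n = 3 each), and was not called (edgeR adjusted p = 0.0508). It was called lower under 3 of 16 alternatives, those with DESeq2 size factors, without mitochondrial genes and without HNRNPD siRNA replicate 2, and its adjusted p ran from 0.044 to 0.143 over all 16. RRN3 has pseudogene rows in the table that hold 32.1% as many counts as the gene, so part of its reads may be shared with these copies.

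Nucleolin and nucleophosmin dominate the set by level. NCL encodes nucleolin, which binds the precursor RNA and ribosomal DNA chromatin, and its gene spans 231453531 to 231483641 of chromosome 2 (GRCh38, minus strand). It was at 6005.7, 6486.2 and 6573 CPM with HNRNPD siRNA, against 7961.5, 7950.2 and 7484.6 CPM with NC siRNA. The 3 HNRNPD siRNA libraries were all below the 3 NC siRNA libraries (log2 fold change -0.30, SE 0.07, edgeR adjusted p = 0.0008). NPM1 encodes nucleophosmin, an abundant chaperone of the outer nucleolus that is often mutated in acute myeloid leukaemia. It had 2317.3, 2393 and 2184.4 CPM with HNRNPD siRNA and 3012.9, 2689.8 and 2708.1 CPM with NC siRNA (log2 fold change -0.29, SE 0.07, edgeR adjusted p = 0.00111). The 45 NPM1 pseudogene rows of the table hold only 0.858% as many counts as NPM1. DDX21, a helicase that links RNA polymerase I to processing, had 387.5, 377.3 and 404.6 CPM with HNRNPD siRNA and 408.4, 394.3 and 411.9 CPM with NC siRNA, with overlapping groups (log2 fold change -0.05, 95% interval -0.17 to 0.06).

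These genes set the total. NCL and NPM1 made up 55.5% of the summed CPM of all 42 genes with HNRNPD siRNA and 62.9% with NC siRNA. The sum over the 42 genes was 15604.3 ± 371.6 CPM with HNRNPD siRNA and 16851.4 ± 478.3 CPM with NC siRNA (SD, n = 3 each). Without NCL and NPM1 the direction was the other way, at 6951.1 ± 184.9 CPM with HNRNPD siRNA and 6249 ± 131.1 CPM with NC siRNA (SD, n = 3 each). When NOLC1, BMS1 and GTPBP4, picked for their large rises in CPM, were also left out, the other 37 genes summed to nearly the same. Their sum was 5481.6 ± 130.4 CPM with HNRNPD siRNA and 5469.8 ± 107.9 CPM with NC siRNA (SD, n = 3 each), less apart than the spread between libraries. Within that sum, rises such as TCOF1 (259 CPM with HNRNPD siRNA, 170.6 with NC siRNA) and falls such as NOP56 (421.6 and 541.7 CPM) offset each other. Per kilobase of exon, NCL had 917.2 CPM with HNRNPD siRNA and 1125.5 CPM with NC siRNA, and NPM1 had 600.4 CPM with HNRNPD siRNA and 732.4 CPM with NC siRNA. NOP56, the third in the NC siRNA libraries, had 78.1 CPM per kilobase with HNRNPD siRNA and 100.4 CPM with NC siRNA.

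**Figure D3:**
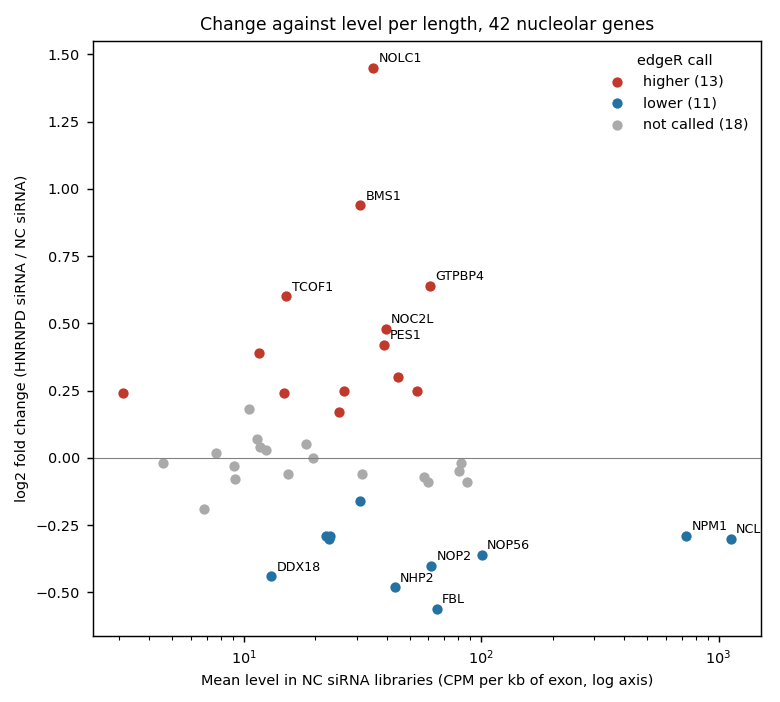
Log2 fold change (HNRNPD siRNA over NC siRNA) against the mean level in NC siRNA libraries in CPM per kilobase of exon (log axis) for the 42 genes, coloured by edgeR call. NCL and NPM1 stand apart at the right with log2 fold changes of -0.30 and -0.29, and NOLC1 stands apart at the top at 1.45.

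Among the 9 genes of snoRNPs and RNA modification, 1 rose (11.1%), 4 fell (44.4%) and 4 were not called. In the level range of the 42, 30.6% of tested genes were called higher and 37.6% lower. NOLC1 encodes a phosphoprotein that carries snoRNPs to the nucleolus and, like treacle, has long stretches of acidic and basic repeats. Its gene spans 102152176 to 102163871 of chromosome 10 (GRCh38, plus strand). Its level was 389.7, 384.1 and 375.5 CPM with HNRNPD siRNA and 139.4, 139.9 and 140.2 CPM with NC siRNA. The difference (log2 fold change 1.45, SE 0.06, edgeR adjusted p = 3.38e-13) was the largest of the 42, and the replicates of each group were within a few percent of each other. NOLC1 shares no exonic base with another gene in the table.

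Methylation-guiding (box C/D) snoRNPs have 3 core proteins in this set. FBL encodes fibrillarin, the methyltransferase, and had 110.7, 91.1 and 87.4 CPM with HNRNPD siRNA against 140.2, 128.9 and 156.5 CPM with NC siRNA (log2 fold change -0.56, SE 0.09, edgeR adjusted p = 0.000225). The HNRNPD siRNA libraries lay below the NC siRNA libraries, with a CV of 13% within HNRNPD siRNA and 9.77% within NC siRNA. NOP56, a scaffold protein of the same particle, had 418.2, 402 and 444.5 CPM with HNRNPD siRNA and 585.9, 512.2 and 527 CPM with NC siRNA (log2 fold change -0.36, SE 0.06, edgeR adjusted p = 0.000103). NOP58, its paralog and partner, was not called (log2 fold change -0.07, 95% interval -0.18 to 0.04). RRP9, a protein specific to the snoRNP that acts in small-subunit processing, fell too (log2 fold change -0.29, SE 0.08, edgeR adjusted p = 0.00439).

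Pseudouridine-guiding (box H/ACA) snoRNPs have 3 core proteins here as well. NHP2, a core RNA-binding protein of these particles and of telomerase, had 51.6, 46 and 43.2 CPM with HNRNPD siRNA and 71.7, 62.1 and 62.3 CPM with NC siRNA (log2 fold change -0.48, SE 0.08, edgeR adjusted p = 3.47e-05). Other genes overlap NHP2 over a fraction of 0.274 of its exons, mainly RMND5B on the opposite strand. GAR1, another core protein, averaged 24.3 ± 0.472 CPM with HNRNPD siRNA and 21.5 ± 1.5 CPM with NC siRNA (SD, n = 3 each), and was not called (log2 fold change 0.18, edgeR adjusted p = 0.0528), but was called under 6 of 16 alternatives, with adjusted p from 0.0242 to 0.227 over all 16. NOP10, the smallest core protein and the least abundant of the 42 genes, averaged 6.68 ± 1.21 CPM with HNRNPD siRNA and 6.5 ± 0.689 CPM with NC siRNA (SD, n = 3 each). NAT10, the enzyme that acetylates ribosomal RNA, had a log2 fold change of -0.06 (95% interval -0.17 to 0.05).

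Of the 12 small-subunit assembly genes, 4 rose (33.3%), 1 fell (8.33%) and 7 were not called, beside 30.6% higher and 37.6% lower in the level range of the 42. BMS1, a GTPase of the early small-subunit particle, had 462.3, 418.9 and 503.7 CPM with HNRNPD siRNA and 258.7, 219.8 and 240.9 CPM with NC siRNA (log2 fold change 0.94, SE 0.07, edgeR adjusted p = 8.36e-09). All HNRNPD siRNA libraries exceeded all NC siRNA libraries. BMS1 has 19 pseudogene rows, whose counts come to 37.9% of those of the gene, and of the 7 such rows with at least 300 counts, 3 were called higher and 4 were not called. UTP20, a very long scaffold of the same particle, had 157.4, 152.9 and 144.3 CPM with HNRNPD siRNA and 115.3, 113.3 and 119 CPM with NC siRNA (log2 fold change 0.39, SE 0.06, edgeR adjusted p = 1.63e-05). UTP3 and RRP12, an export factor, each had a log2 fold change of 0.25 (edgeR adjusted p = 0.00121 and 0.0057).

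A helicase went the other way. DDX52 had 173.3, 169.2 and 176.1 CPM with HNRNPD siRNA and 209.1, 215.6 and 210.8 CPM with NC siRNA, with no overlap (log2 fold change -0.29, SE 0.06, edgeR adjusted p = 0.000184). DDX10, another helicase of this branch, was not called (log2 fold change 0.05). WDR43, UTP15 and WDR75 belong to a subcomplex that joins the precursor RNA early, and had log2 fold changes of -0.09, -0.03 and 0.02, none of them called. WDR43 was called without HNRNPD siRNA replicate 3 (edgeR adjusted p = 0.0207). NOP14 and its partner NOC4L (-0.02 and -0.08) and BYSL (0.07) were not called either, and the antisense gene NOP14-AS1 overlaps much of the fraction of 0.171 of NOP14 exons that other genes cover.

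In large-subunit assembly 5 of 12 genes were higher, 4 lower and 3 not called, that is 75% called, beside 68.2% of tested genes in the level range of the 42. Without HNRNPD siRNA replicate 1, or without any one NC siRNA replicate, 4 were higher and 3 lower. GTPBP4, a GTPase of late nucleolar particles, had 599.6, 622.5 and 651.7 CPM with HNRNPD siRNA and 405.2, 397 and 396.2 CPM with NC siRNA (log2 fold change 0.64, SE 0.06, edgeR adjusted p = 2.33e-08). Other genes overlap a fraction of 0.191 of its exons, mainly IDI2 on the opposite strand, whose mean is only 78.8 counts per library. NOC2L, which travels with precursors from the nucleolus to the nucleoplasm, had 302.3, 326.8 and 292.2 CPM with HNRNPD siRNA and 224.6, 226.1 and 209.2 CPM with NC siRNA (log2 fold change 0.48, SE 0.06, edgeR adjusted p = 2.2e-06). Its partner NOC3L had 0.17 on the log2 scale (edgeR adjusted p = 0.0149), a call that 5 of 16 alternatives ended, 4 of them by leaving out HNRNPD siRNA replicate 1 or any NC siRNA replicate (edgeR adjusted p up to 0.0883). NOP16 rose as well (log2 fold change 0.24, edgeR adjusted p = 0.00352), and a fraction of 0.2 of its exons overlaps other genes.

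Among the falls was DDX18, a helicase, with 85.1, 74.2 and 69.6 CPM with HNRNPD siRNA and 102.8, 100.3 and 106.6 CPM with NC siRNA (log2 fold change -0.44, SE 0.07, edgeR adjusted p = 3.43e-05). NOP2, a methyltransferase of the large-subunit RNA and a long-known proliferation antigen, averaged 218.3 ± 22.9 CPM with HNRNPD siRNA and 288.2 ± 19.2 CPM with NC siRNA (SD, n = 3 each; log2 fold change -0.40, edgeR adjusted p = 0.000167). GNL2, a GTPase, fell slightly (log2 fold change -0.16, edgeR adjusted p = 0.0289), and 7 of 16 alternatives ended its call, 5 of them by leaving out a library other than HNRNPD siRNA replicate 3, with adjusted p up to 0.0984. Its relative GNL3, or nucleostemin, and RRP1 were not called, at log2 fold changes of -0.09 and 0.00.

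**Figure D4:**
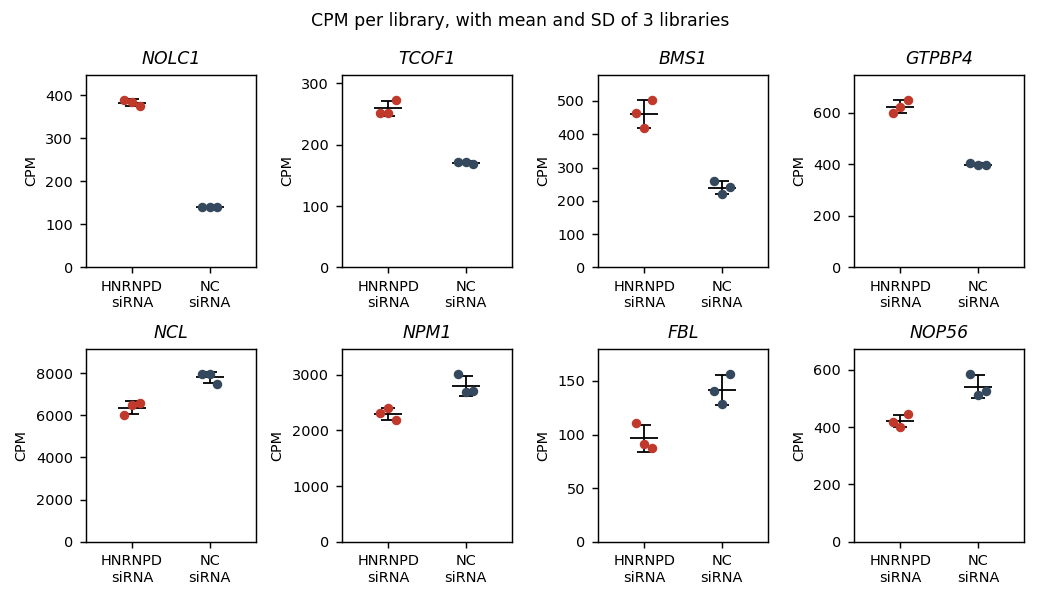
CPM in each library for 4 genes that rose (NOLC1, TCOF1, BMS1 and GTPBP4) and 4 that fell (NCL, NPM1, FBL and NOP56), HNRNPD siRNA on the left of each panel. Bars are the mean and SD of 3 libraries, all axes start at 0, and in all 8 panels the groups do not overlap.

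Some partners in a complex differed in their calls. PES1, BOP1 and WDR12 form the PeBoW complex, needed to process large-subunit RNA. PES1 had 217.6, 235.9 and 262.1 CPM with HNRNPD siRNA and 179.5, 178 and 177.2 CPM with NC siRNA (log2 fold change 0.42, SE 0.07, edgeR adjusted p = 2.43e-05). BOP1 fell (log2 fold change -0.30, SE 0.06, edgeR adjusted p = 0.000307), and WDR12 was not called (log2 fold change -0.02, 95% interval -0.14 to 0.10). The ratio of PES1 to BOP1 in CPM per kilobase was 2.62, 2.72 and 3.05 with HNRNPD siRNA and 1.66, 1.76 and 1.70 with NC siRNA, with no overlap. A ratio within a library does not depend on how libraries are scaled.

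The same was done for 3 more pairs of partners, and in each the groups did not overlap. NHP2 over GAR1 averaged 2.62 ± 0.20 with HNRNPD siRNA and 4.12 ± 0.06 with NC siRNA (SD, n = 3 each, CPM per kilobase, as for the others). NOP56 over NOP58 averaged 1.42 ± 0.07 with HNRNPD siRNA and 1.74 ± 0.08 with NC siRNA. NOC2L over NOC3L averaged 1.97 ± 0.16 with HNRNPD siRNA and 1.58 ± 0.05 with NC siRNA. Over the 4 pairs, the exact two-sided permutation test of the log2 ratio gave p = 0.1 and adjusted p = 0.1 for each, the smallest that 3 against 3 libraries allow. These pairs were picked after their values were seen, so neither the lack of overlap nor the p-values is evidence of a shift between partners. Of all tested genes taken singly, 62.6% had no overlap between the groups, and the share among ratios of other gene pairs was not computed.

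Promoter sequences from RefSeq (GRCh38.p14, 250 bases before to 50 from the annotated start) were found for 35 of the 42 genes. Those of NOLC1, TCOF1, BOP1, DDX18, DDX52, NOP58 and RRP12 were not matched. The E-box was searched as CACGTG, which reads the same on both strands. It was present for 15 of the 35 genes (42.9%), against 12.4% of 11361 tested genes in the same table and 8.77% of all 27305 genes there. Some genes had several promoters there, each with its own annotated start, and a gene was counted if any held the motif. DDX21, GAR1 and GNL3 each also had a promoter without it. The windows of 30 bases below are shown because a larger share of the 35 genes than of that table holds the motif. They are written on the strand of the gene with the E-box in capitals. The first set fell, the second rose, and the last holds 4 of the 8 genes that were not called.
FBL (chr19:39846356-39846385, minus strand): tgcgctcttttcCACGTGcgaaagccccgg
NOP2 (chr12:6568242-6568271, minus strand): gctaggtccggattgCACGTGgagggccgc
RRP9 (chr3:51941892-51941921, minus strand): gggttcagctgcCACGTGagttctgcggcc
GNL2 (chr1:37595917-37595946, minus strand): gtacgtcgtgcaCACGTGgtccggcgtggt
PES1 (chr22:30591880-30591909, minus strand): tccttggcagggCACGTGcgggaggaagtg
UTP20 (chr12:101280083-101280112, plus strand): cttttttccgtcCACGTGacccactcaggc
NOC3L (chr10:94362903-94362932, minus strand): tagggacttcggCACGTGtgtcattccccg
NOP10 (chr15:34343130-34343159, minus strand): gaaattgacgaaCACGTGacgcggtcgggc
NAT10 (chr11:34105602-34105631, plus strand): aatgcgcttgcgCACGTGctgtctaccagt
DDX21 (chr10:68956604-68956633, plus strand): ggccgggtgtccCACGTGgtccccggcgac
WDR43 (chr2:28894658-28894687, plus strand): cgcacggacgaaCACGTGgctgcagcgggg

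In 15 of the 16 E-boxes found, the first base lay within 40 bases of the annotated start, and 10 genes had one downstream of it. Genes with the motif did not share a direction: 3 were higher, 4 lower and 8 not called, with log2 fold changes from -0.56 to 0.42 and a median of -0.05. Of the 20 genes without it, 7 were higher, 4 lower and 9 not called. Their log2 fold changes ran from -0.48 to 0.94, with a median of 0.01. Among tested genes in the level range of the nucleolar genes, with or without the motif, 30.6% were called higher and 37.6% lower. MYC itself had 33.5, 33 and 34.6 CPM with HNRNPD siRNA and 37.4, 34.1 and 32.4 CPM with NC siRNA, and was not called (log2 fold change -0.04, 95% interval -0.18 to 0.10). A match describes the letters in this window and does not show that a factor binds there.

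The promoters of FBL, which fell, and PES1, which rose, are printed below with the E-box in capitals. Each runs from 250 bases before the annotated RefSeq start through the 30 bases that begin at it. The counted PES1 gene spans 30576625 to 30607083 of chromosome 22, minus strand, so this start lies inside it. Both carry the E-box shortly after the annotated start, at positions 7 and 14 counted from 1 at that start.
FBL (chr19:39846350-39846629, minus strand): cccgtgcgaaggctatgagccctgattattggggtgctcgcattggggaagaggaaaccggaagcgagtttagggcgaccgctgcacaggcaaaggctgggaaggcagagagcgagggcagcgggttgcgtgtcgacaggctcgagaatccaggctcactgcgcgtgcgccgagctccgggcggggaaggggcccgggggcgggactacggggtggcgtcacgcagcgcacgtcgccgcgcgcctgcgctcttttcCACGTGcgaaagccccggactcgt
PES1 (chr22:30591881-30592160, minus strand): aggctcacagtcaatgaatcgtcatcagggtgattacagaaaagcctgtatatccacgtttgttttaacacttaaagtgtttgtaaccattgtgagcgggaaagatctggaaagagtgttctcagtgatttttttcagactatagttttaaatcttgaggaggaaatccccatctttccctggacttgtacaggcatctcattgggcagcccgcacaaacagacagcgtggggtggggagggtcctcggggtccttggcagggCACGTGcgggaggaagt

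**Figure D5:**
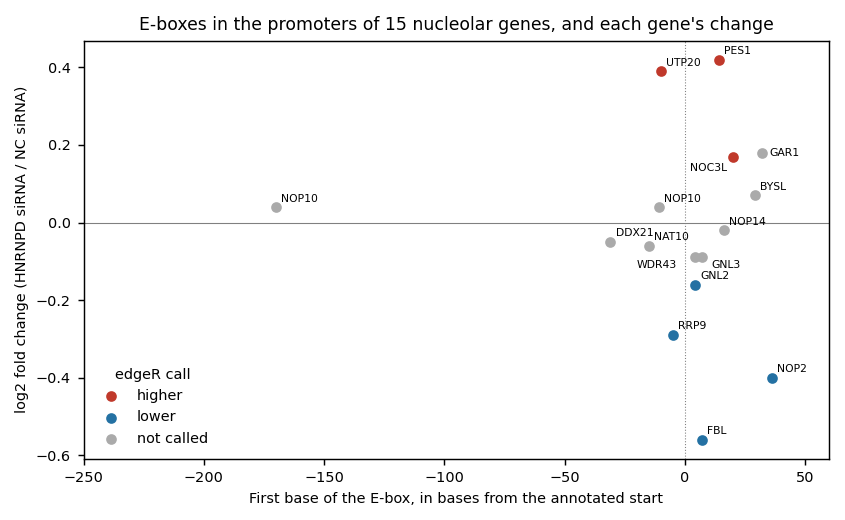
Position of each E-box in bases from the annotated start (negative is upstream) against the log2 fold change of its gene, HNRNPD siRNA over NC siRNA, for 15 genes and 16 E-boxes, coloured by edgeR call. All but 1 E-box, in NOP10, lie within 40 bases of the start, and genes above and below 0 both have one.

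AUF1 binds AU-rich sequence, so the 3′ untranslated regions of the 42 genes were searched for ATTTA and for the longer TATTTAT, which contains it, on the mRNA strand of the principal GENCODE 29 transcript. ATTTA occurred in 27 of the 42 genes (64.3%), against 68.7% of 13457 tested protein-coding genes, and TATTTAT in 7 (16.7%), against 32.2%. The regions of the 42 genes were shorter, with a median of 500 bases against 1060. By call, ATTTA was found in 11 of 13 genes that rose, 6 of 11 that fell and 10 of 18 not called. The regions also differed in length, with a median of 521 bases in genes that rose, 122 in genes that fell and 612.5 in those not called. The shares with ATTTA were 84.6% in genes that rose, 54.5% in genes that fell and 55.6% in those not called. Per kilobase ATTTA occurred 1.88 times in genes that rose, 2.3 in genes that fell and 1.69 in those not called. Among tested genes of like length (within 20%), the share with ATTTA ran from 37.9% (NOP16) to 97.2% (BMS1) for genes that rose. It ran from 3.57% (GNL2) to 98.3% (DDX52) for genes that fell, and from 3.1% (NOC4L) to 99.7% (WDR12) for those not called. The part of length in the counts by call was not tested, so they are not read as a difference in the motif. TATTTAT was found in BMS1 and NOC2L, which rose, in DDX52, which fell, and in RRN3, DDX21, BYSL and WDR12, which were not called. Among tested genes with a region within 20% of the length of theirs, 62.9% have the longer motif for BMS1, 14.8% for NOC2L and 68.3% for DDX52. NOLC1, with the largest rise, has 1597 bases of this region with 1 ATTTA and no TATTTAT, where 87.2% of tested genes of like length have an ATTTA. FBL, with the deepest fall, has neither in its 80 bases, and NCL has 2 ATTTA in 1660 bases. Sites of the longer motif in called genes are shown in windows of 30 bases on the mRNA strand (GRCh38), with the motif in capitals.
BMS1, first site (chr10:42831449-42831478, plus strand): ttgtggataatTATTTATactaccaccttc
BMS1, second site (chr10:42833034-42833063, plus strand): ttgcaaataagTATTTATaattgtatagtt
NOC2L (chr1:944546-944575, minus strand): acaggctttatTATTTATttttcagcatga
DDX52 (chr17:37613077-37613106, minus strand): tgaattcaactTATTTATttcctctatttg

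The rest of the pathway was also called in both directions. Of the other ribosome biogenesis genes, taken by function in 5 lists, 35 rose, 47 fell and 44 were not called, with a median log2 fold change of -0.07. So 65.1% were called, 27.8% higher and 37.3% lower. In the level range of the 42, 68.2% of tested genes were called, 30.6% higher and 37.6% lower, and the small lists below have to be read against these shares. In the other RNA polymerase I genes, 2 of 10 rose (20%) and 3 fell (30%). TAF1D and TTF1, a termination factor, had log2 fold changes of 0.37 and 0.31, and the subunit gene POLR1G (CD3EAP in the table) and TAF1B had -0.66 and -0.59. Other genes overlap a fraction of 0.451 of the exons of POLR1G. Of 14 other snoRNP and modification genes, 3 rose (21.4%) and 9 fell (64.3%). DKC1, the pseudouridine synthase that works with NHP2, NOP10 and GAR1, averaged 439.4 CPM with HNRNPD siRNA and 343.5 CPM with NC siRNA (log2 fold change 0.36, SE 0.06, edgeR adjusted p = 3.24e-05), and the helicase RUVBL2 had 0.21. BUD23 (WBSCR22 in the table), a methyltransferase of small-subunit RNA, and its activator TRMT112 both fell, at -0.76 and -0.65.

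Among 42 other small-subunit genes, 15 rose (35.7%) and 12 fell (28.6%), where the shares in the level range of the nucleolar genes were 30.6% and 37.6%. The helicase DHX37 averaged 95.9 CPM with HNRNPD siRNA and 44.7 CPM with NC siRNA (log2 fold change 1.10, SE 0.07, edgeR adjusted p = 1.79e-10), and MPHOSPH10 had 0.69, while DCAF13 and RRP36 fell, at -0.93 and -0.76. Among 44 other large-subunit genes, 12 rose (27.3%) and 15 fell (34.1%). ZNF622 and the helicase DDX24 rose, with log2 fold changes of 1.09 and 0.97, and LYAR and RSL24D1 fell, at -0.90 and -0.64. Of 16 nucleases and exosome subunits that trim the RNA, 3 rose (18.8%) and 8 fell (50%). DIS3, a catalytic exosome subunit, was at 0.42, EXOSC9 at 0.20, ERI1 at -0.94 and EXOSC2 at -0.44. Each of these named genes passed the edgeR threshold over all genes.

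Some of the 42 genes host snoRNA genes. SNORD86, a snoRNA row within NOP56, averaged 14.8 ± 0.292 CPM with HNRNPD siRNA and 29.4 ± 4.52 CPM with NC siRNA (SD, n = 3 each; edgeR adjusted p = 9.08e-08). SNORD57 and SNORD110 of the same host were not called, at log2 fold changes of -0.07 and 0.04. All 3 lie wholly within annotated exons of NOP56, so their counts and those of NOP56 are not separate measurements. SNORD19B, within GNL3, averaged 3.31 ± 0.276 CPM with HNRNPD siRNA and 2.55 ± 0.365 CPM with NC siRNA (SD, n = 3 each) and was not called. The other snoRNA rows that lie wholly inside NCL, NOP58, GNL3 or WDR43 averaged under 1 CPM in each group, and of these SNORD92, within WDR43, was called higher at 0.294 CPM with HNRNPD siRNA and 0.0781 CPM with NC siRNA (edgeR adjusted p = 0.0132), close to the level of 3 counts. Rows with any annotated interval outside the host, such as SNORA51, were not analysed here. A ribosomal RNA row, RNA5-8S5, averaged 21.8 CPM with HNRNPD siRNA and 8.85 CPM with NC siRNA (log2 fold change 1.30, SE 0.16). Ribosomal DNA is repeated, and the sources do not say how reads from repeats were treated, so this is a count of what the libraries kept and not a measure of ribosome output.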

How the data were processed

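RNA from 3 HNRNPD siRNA and 3 NC siRNA libraries of A549 cells was extracted with Trizol and prepared with an Illumina TruSeq kit, per the labels' protocols. The authors deposited whole-number read counts per gene with no normalization. The submitters' processing notes list Bowtie 0.12.2, GRCh38 and mm8 with no role, and no source names the counter, annotation version, strand setting or handling of reads with several matches. Of counts from 1 to 20, 66.2 to 69.5% were even, against 50.6 to 51.7% of counts over 200; the reason was not tested.

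From these counts, edgeR 4.0.16 (R 4.3.3) was run with TMM scaling, filterByExpr, group as the only term and a robust quasi-likelihood test, with Benjamini-Hochberg adjustment over the 20465 genes that passed the filter. A standard error is the size of the log2 fold change over the root of F. CPM used TMM-scaled totals, and CPM per kb divided these by the exon length. The test was checked on simulated counts. Alternatives used limma 3.58.1, DESeq2 1.42.0, other scalings and filters, the replicate number as a block and each library left out in turn.

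Genes were located by the deposited table's coordinates, and all 42 matched GENCODE 29 (GRCh38) by name and position. The genes and gene lists were chosen with earlier results of these data known. Values in every library are given for NCL, NPM1, FBL, POLR1A and UBTF and, in each role group, for the 3 genes with the smallest p, with 1 of each direction where both were called, and PES1 was added to the large-subunit group. In the wider pathway, the genes named are those with the 2 smallest p-values per direction and list. The 4 pairs of complex partners and the motifs counted in untranslated regions were chosen after values were seen.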

Additional observations from a re-analysis of the deposited data

How the results depend on the processing

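The counts of called genes were recomputed under 16 alternatives, 10 of them processing choices and 6 leaving out a library in turn. Among the 42 nucleolar genes, between 11 and 14 were called higher and between 10 and 12 lower under all 16. Of the 13 higher, 11 lower and 18 uncalled genes, 11, 10 and 15 kept their call under every alternative. The exceptions were POLR1B, NOC3L, GNL2, POLR1C, GAR1 and WDR43, and no called gene changed direction. The log2 fold change of HNRNPD ran from -2.53 to -2.46. The median log2 fold change of the 42 genes was 0.00 with library totals only, -0.04 with no filter on low counts and 0.01 with at least 1 CPM in 3 libraries, and ran from -0.04 to -0.02 over the libraries left out. Over the other ribosome biogenesis genes the median was -0.05 with library totals only, -0.09 with no filter and -0.04 with at least 1 CPM in 3 libraries, and ran from -0.07 to -0.05 over the libraries left out. The cause of these shifts was not tested. With the replicate number as a block, 14 of the 42 genes were called higher and 11 lower. Libraries with the same number did not deviate together, with correlations of their deviations from the group means of 0.03, 0.02 and 0.01 for replicates 1 to 3, so the numbers were not taken to pair libraries. NOP10, the least abundant of the 42, had 212 counts or more in each library, so each of the 42 was well above the limit that a count of 0 allows.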
